A study of Mus musculus with 16 samples.

Results

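The miRNAs described here are the late-numbered mouse miRNAs that lie outside the mirtron-rich number block miR-6896 to miR-7094, measured in the lateral ventricle (LV) wall of WT and Dgcr8+/- mice. A miRNA was a candidate when its number was 1000 or higher, it lay outside that block and it was not one of a few individually set aside numbers, which gave 640 mature miRNAs on the array. Of these, 100 were detected on at least 8 of the 16 arrays by the detection flag of the scanner software and are the members. They were chosen by these detection flags over both genotypes and not by the genotype difference, although the signal that sets the flag is the same signal that is compared. The array holds 1881 mouse mature miRNAs, 495 of which passed the same detection filter and entered every fit. Of the remaining late-named candidates, 522 were detected on no array.

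The 16 arrays hold total RNA from the LV wall of 8 WT littermates and 8 Dgcr8+/- male mice, 1 array per mouse, all aged 8 months and on the C57BL/6J background. Dgcr8+/- mice carry 1 functional copy of Dgcr8 in all cells from the germline, and no other allele or treatment differs by the labels. The LV wall is a dissected tissue that holds ependymal cells together with other cell types, so fewer cells of a type and less RNA per cell cannot be told apart. The arrays measure no mRNA, so the level of Dgcr8 itself was not checked. Neuronal miR-124-3p and the multiciliated-cell miRNAs miR-34b-5p, miR-34c-5p and miR-449a-5p were detected on all 16 arrays.

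As background, Dgcr8 binds the hairpin of a primary miRNA transcript and positions the nuclease Drosha, which cuts the hairpin free. Dicer then releases a short duplex whose 5p or 3p strand enters an Argonaute protein and guides it to target transcripts, mainly through the seed at bases 2 to 8. Mirtrons are short introns that are freed by splicing and do not need Dgcr8. miRNA numbers follow the order of discovery. Most late numbers come from deep sequencing, and for many the processing route and function are not established, and some late-named entries have been reinterpreted as fragments of other RNAs.

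RefSeq (GRCm38.p6) holds a mature sequence for 83 of the 100 members. The sequences are given 5′ to 3′ with the seed in capitals. The first set is the 4 members with the brightest signal, which together held 98.2% ± 0.10 (SD, n = 8) of the members' summed signal in WT and 98.3% ± 0.06 in Dgcr8+/- arrays before normalization.
miR-6366: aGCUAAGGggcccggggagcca
miR-3963: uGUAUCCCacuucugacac
miR-5100: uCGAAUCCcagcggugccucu
miR-3968: cGAAUCCCacuccagacacca
The letters AUCCCA (given strand only) occur in miR-3963, miR-5100 and miR-3968, which are 3 of the 83 members with a sequence (3.61%) and 3 of the 4 such miRNAs among 426 tested ones with a sequence (0.939%). The second set holds members that were higher in Dgcr8+/- arrays by the largest amounts after normalization, shown for their base composition.
miR-5119: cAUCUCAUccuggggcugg
miR-5126: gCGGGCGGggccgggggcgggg
miR-8110: aAGCGUGGauugggggggggg
miR-6769b-5p: cCUGGUGGguggggaagagc
miR-5128: cAAUUGGGgcuggcgagauggcu
miR-8105: aGGCGACUggcgagacccgaag
miR-7686-5p: cCUUCCACuggaccuggggcugggc
The run GGGG (given strand, overlapping longer runs) was in 6 of these 7 sequences, in 23 of the 83 members (27.7%) and in 64 of the 426 tested miRNAs (15%). The third set holds 1 member that fell and the members whose seed is shared.
miR-3099-3p: uAGGCUAGagagagguugggga
miR-3473b: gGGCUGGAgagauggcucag
miR-3473e: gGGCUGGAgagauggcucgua
miR-6370: gCAGGAACagcaaaggggaag
miR-3473b and miR-3473e share a stretch of 18 bases, and miR-3473a shares 16 bases with miR-3473b. Their array signals may therefore draw on the same RNAs and are not independent. miR-6370 shares its seed with miR-873a-5p, which is not a member.

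The members lie on 19 chromosomes, with the most (10) on chromosome 12. Of the 83 with coordinates, 52 lie within a protein-coding gene. miR-6366 lies outside such genes at chr16:18165093-18165114 on the minus strand, and its hairpin is 88.8 kb from Dgcr8 (chr16:18253948-18289251), the gene that is deleted on 1 chromosome in these mice. miR-5126 lies within Dner at chr1:84695890-84695911, miR-5119 within Cdk12 at chr11:98262638-98262656, and miR-5128 within Strbp at chr2:37688212-37688234. miR-6769b-5p lies within Unc13a at chr8:71631083-71631102, and miR-3099-3p within Usp29 at chr7:6803638-6803659. The hairpins of miR-2861 and miR-3960 are 11 bases apart on chromosome 2. Whether these positions are exonic or intronic was not annotated in the tables used. The strand of the gene was not considered, so a miRNA counted as within a gene may lie antisense to it.

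Before the arrays were normalized to each other, the median log2 signal of the members was close between genotypes. It was 5.08 ± 0.20 (SD, n = 8) in WT and 5.00 ± 0.11 in Dgcr8+/- arrays, with ranges of 4.86 to 5.39 and 4.88 to 5.17. The median over the other tested miRNAs was 6.38 ± 0.20 in WT and 5.89 ± 0.26 in Dgcr8+/- arrays. The members' share of the summed signal of tested miRNAs was 57.2% ± 2.4 in WT (54.0 to 60.3%) and 63.8% ± 4.6 in Dgcr8+/- arrays (59.9 to 73.4%). The highest share was in Dgcr8+/- replicate 2. The members detected per array numbered 96 to 100 in WT and 93 to 97 in Dgcr8+/-.

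**Figure D1:**
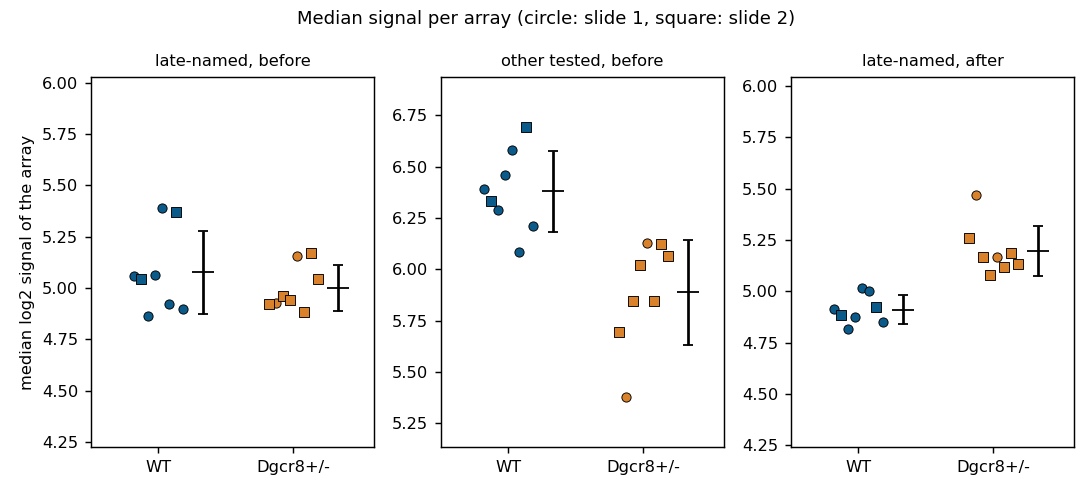
Median log2 signal of each array for the members before normalization, for the other tested miRNAs before normalization and for the members after normalization. Points are arrays (8 per genotype), circles are slide 1 and squares slide 2, and bars are the mean and SD. The members' medians overlap between genotypes before normalization, and after it all 8 Dgcr8+/- arrays lie above the 8 WT arrays (5.08 to 5.47 against 4.81 to 5.02).

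After quantile normalization, 57 members were higher and 2 were lower in Dgcr8+/- than in WT arrays at an adjusted p under 0.05 (limma, Benjamini-Hochberg over 495 miRNAs), and 41 were not called. Over all tested miRNAs 28.3% were called higher and 27.9% lower. The median log2 fold change (Dgcr8+/- minus WT) was 0.31 over the members, with quartiles of 0.18 and 0.43, and 0.04 over all tested miRNAs. In total 95 members had a positive value and 5 a negative one. At the thresholds that the study applied to its array results (unadjusted p under 0.05 and an absolute log2 fold change over 0.4), 30 members were higher (10.5% of all tested) and 1 was lower (18% of all tested). Among the 85 members detected on all 16 arrays, 54 were higher and 1 was lower, against 30.9% and 26.3% of the 430 miRNAs detected on all arrays. The genotypes did not overlap for 16 members that were higher (7.07% of all tested) and 1 that was lower (17.2% of all tested).

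Without normalization no member was called higher and 15 were called lower by the same limma test. Over all tested miRNAs 0% were called higher and 59.2% lower. At an unadjusted p under 0.05 the members' counts were 0 higher and 17 lower. The median log2 fold change was -0.09 over the members and -0.39 over all tested miRNAs, so the members' median lay 0.30 above that of all tested miRNAs before normalization and 0.27 above it after. The distance depended on how dim signals were treated. With normexp background correction of the median signal (offset 50) the members' median was 0.09 and lay 0.08 above that of all tested miRNAs. With a pseudocount of 16 it was 0.20 and lay 0.16 above it. The calls were 53 members higher and 2 lower with normexp (132 and 140 of all 495 tested). With the pseudocount they were 55 and 2 (139 and 142 of 495). Normalization raised each member's value by 0.04 to 0.55, with a median of 0.38 against 0.40 over all tested miRNAs. No member was called in opposite directions before and after. The 57 members called higher after normalization were not called before it, when 29 of them had a negative and 28 a positive value. Of the 15 called lower before, 2 were also lower after and 13 were not called. The sign of the value differed between the scales for 65 members, and 45 members lay within 0.1 of 0 before normalization. Without normalization the genotypes did not overlap for 0 higher (0% of all tested) and 4 lower members (27.5% of all tested), namely miR-1198-5p, miR-3099-3p, miR-6540-5p and miR-7224-3p.

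**Figure D2:**
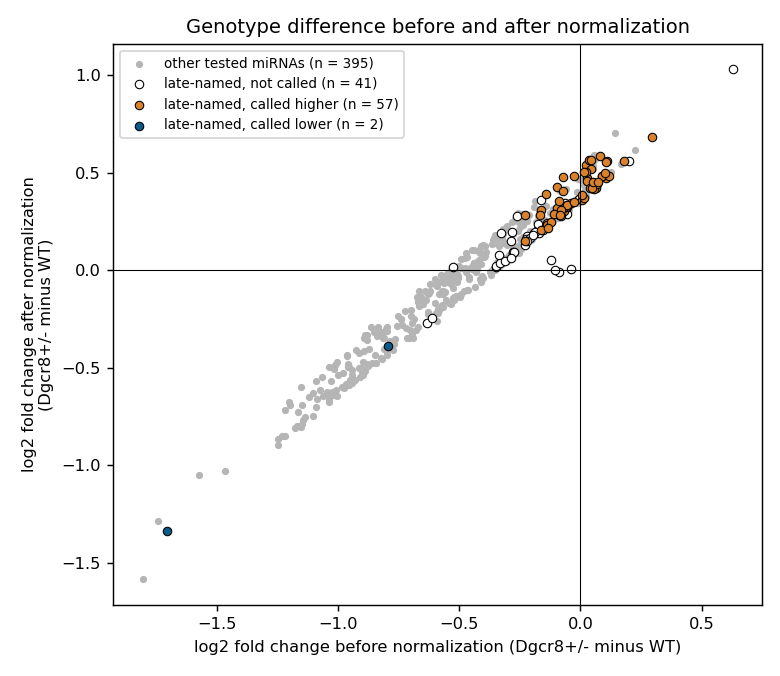
Log2 fold change (Dgcr8+/- minus WT) of each tested miRNA before normalization (horizontal) and after quantile normalization (vertical). Grey points are the other tested miRNAs, orange points the 57 members called higher after normalization, blue points the 2 called lower and white points the 41 not called. Orange points lie from -0.23 to 0.29 on the horizontal axis, and the blue points lie left of 0 on it.

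The same 2 scales can be set beside the most similar groups of miRNAs. In the mirtron-rich block, 30 of 44 tested miRNAs were higher and 0 lower after normalization, and 0 were higher and 2 lower before it, with medians of 0.36 and -0.01. At an unadjusted p under 0.05 before normalization, 0 were higher and 5 lower in the block. Among the 343 tested miRNAs with a number under 1000 or a let-7 name, 49 were higher and 134 lower after normalization, and 273 were lower before it, with medians of -0.10 and -0.55. These are descriptions of the groups, and the differences between them were not tested.

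The 8 brightest members were taken by mean signal, and array signal differs with the probe as well as with the RNA. miR-6366 had a normalized log2 signal of 17.94 on every WT array and of 17.94 to 17.97 on Dgcr8+/- arrays. miR-3963 was at 17.15 on every WT array and at 17.09 to 17.15 on Dgcr8+/- arrays. Quantile normalization gives the brightest probes of each array the same values, so these normalized values hold almost no information on genotype. Before normalization the log2 fold change was -0.04 (SE 0.08, adjusted p = 0.688) for miR-6366 and -0.09 (SE 0.08, adjusted p = 0.341) for miR-3963. miR-5100 was -0.12 (SE 0.08, adjusted p = 0.215) and miR-3968 -0.11 (SE 0.09, adjusted p = 0.346) on that scale, and neither was called after normalization. Their probes differed after normalization. The dimmer probe of miR-5100 was called higher (0.28, SE 0.11, adjusted p = 0.0436), and that of miR-3968 was not called (0.35, SE 0.15, adjusted p = 0.0577). Their brighter probes were at 0.02 and -0.02. Arrays were also scaled instead to the 75th percentile of probes of miRNAs detected on all arrays. The values were then 0.50 (miR-6366), 0.45 (miR-3963), 0.42 (miR-5100) and 0.43 (miR-3968), each with an adjusted p under 0.05. The median of all tested miRNAs was 0.14 on that scale.

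The other 4 bright members were all higher after normalization. miR-3473b ranged from 9.29 to 9.76 (median 9.53) in WT and from 9.68 to 9.95 (median 9.86) in Dgcr8+/- arrays, a log2 fold change of 0.31 (SE 0.07, adjusted p = 0.00138). It was not called with the 75th percentile of all probes as the scale (0.20, adjusted p = 0.059). miR-8117 ranged from 8.18 to 8.54 (median 8.29) in WT and from 8.56 to 9.14 (median 8.86) in Dgcr8+/- arrays, without overlap, and rose by 0.50 (SE 0.08, adjusted p = 9.72e-05). Before normalization its difference was 0.01 (SE 0.10, adjusted p = 0.923). miR-6368 ranged from 9.72 to 10.08 (median 9.96) in WT and from 10.11 to 11.33 (median 10.18) in Dgcr8+/- arrays. Its log2 fold change was 0.40 (SE 0.14, adjusted p = 0.0213), and 11.33 was replicate 2 while the other 7 Dgcr8+/- arrays lay between 10.11 and 10.39. Without replicate 2 the log2 fold change was 0.27. With outlier-marked spots kept, the difference was 0.11 (adjusted p = 0.803).

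miR-5126 was the fourth of these and one of the largest rises. Its normalized signal ranged from 8.36 to 8.90 (median 8.72) in WT and from 9.02 to 9.60 (median 9.22) in Dgcr8+/- arrays. The genotypes did not overlap, and the log2 fold change was 0.58 (SE 0.09, adjusted p = 6.09e-05). Its mature sequence consists of G and C alone. Before normalization the means were 8.91 ± 0.19 and 8.99 ± 0.08 (SD, n = 8), a difference of 0.08 (SE 0.09, adjusted p = 0.474).

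The other large rises have no role established well enough to give here. miR-5128 ranged from 5.33 to 5.85 (median 5.62) in WT and from 5.96 to 6.44 (median 6.13) in Dgcr8+/- arrays, a log2 fold change of 0.56 (SE 0.08, adjusted p = 2.46e-05). miR-8110 ranged from 7.99 to 8.50 (median 8.30) in WT and from 8.54 to 9.15 (median 8.78) in Dgcr8+/- arrays, a log2 fold change of 0.57 (SE 0.09, adjusted p = 5.14e-05). For both, every Dgcr8+/- array lay above every WT array after normalization. Without normalization the differences were 0.11 (SE 0.11) and 0.04 (SE 0.09), both not called.

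miR-6769b-5p ranged from 7.37 to 7.93 (median 7.46) in WT and from 7.86 to 8.54 (median 8.08) in Dgcr8+/- arrays, so the groups overlapped slightly. Its log2 fold change was 0.56 (SE 0.10, adjusted p = 0.00022). miR-7686-5p ranged from 5.95 to 6.58 (median 6.30) in WT and from 6.38 to 7.22 (median 6.89) in Dgcr8+/- arrays, with a log2 fold change of 0.56 (SE 0.12, adjusted p = 0.000653). One Dgcr8+/- array of miR-7686-5p fell within the WT range. miR-8105 was dim, at 2.96 to 3.62 (median 3.31) in WT and 3.27 to 4.48 (median 3.78) in Dgcr8+/- arrays. Its log2 fold change of 0.56 (SE 0.15, adjusted p = 0.00349) rested on 1 of its 2 probes, since the other was at the floor of 1 signal unit in both groups. With a floor of 16 signal units it was not called (0.08, adjusted p = 0.281).

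miR-5119 had the largest called rise, 0.68 (SE 0.22, adjusted p = 0.0135), with a wide spread. It ranged from 3.55 to 4.81 (median 4.12) in WT and from 4.29 to 5.98 (median 4.62) in Dgcr8+/- arrays, with overlap. Dgcr8+/- replicate 5 held the highest value, and without it the log2 fold change was 0.52. When all 1881 miRNAs entered the fit, it was not called (adjusted p = 0.066). miR-1941-5p, singled out after its values were seen, had the largest log2 fold change of all members, 1.03 (SE 0.50), and was not called (adjusted p = 0.0857). Its signal ranged from 2.46 to 5.48 in WT and from 3.37 to 7.08 in Dgcr8+/- arrays. For both miR-1941-5p and miR-5119 the highest WT arrays were replicates 6 and 5, and the highest Dgcr8+/- array was replicate 5. miR-1941-5p passed the threshold with the slide as a block (1.47, adjusted p = 0.030). Dgcr8+/- replicate 5 was 1 of only 2 Dgcr8+/- arrays on slide 1.

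**Figure D3:**
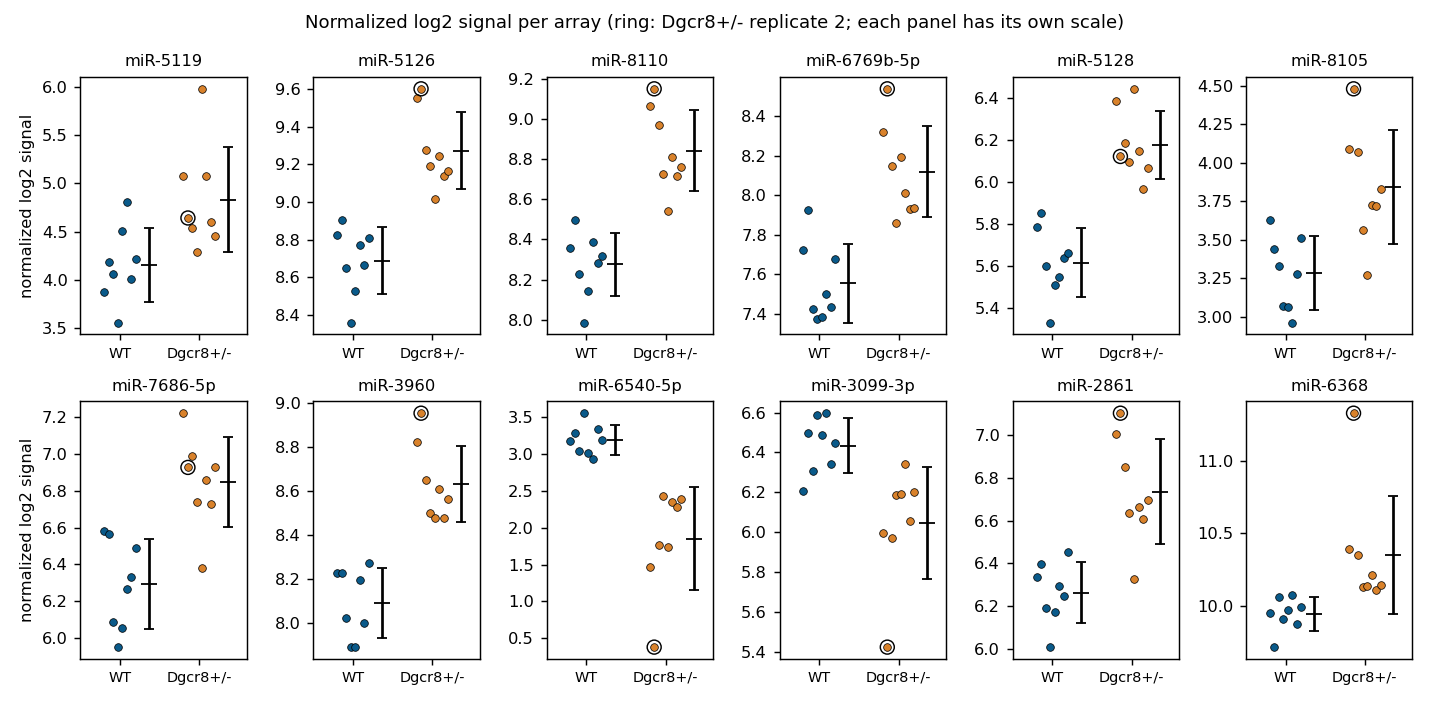
Normalized log2 signal on each of the 16 arrays for the 8 largest called rises, both called falls, miR-2861 and miR-6368. Points are arrays, bars are the mean and SD of 8 arrays, the ring marks Dgcr8+/- replicate 2, and each panel has its own vertical scale. miR-5126, miR-8110, miR-5128, miR-3960 and miR-6368 separate the genotypes upward and miR-6540-5p separates them downward.

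miR-2861 and miR-3960, neighbouring hairpins that are known from studies of osteoblast differentiation, were both higher after normalization. miR-2861 ranged from 6.01 to 6.45 (median 6.27) in WT and from 6.33 to 7.10 (median 6.68) in Dgcr8+/- arrays, a log2 fold change of 0.47 (SE 0.10, adjusted p = 0.000551). miR-3960 ranged from 7.89 to 8.27 (median 8.11) in WT and from 8.48 to 8.95 (median 8.59) in Dgcr8+/- arrays, a log2 fold change of 0.54 (SE 0.08, adjusted p = 3.89e-05). Only miR-3960 of the pair separated the genotypes. Before normalization the differences were 0.03 (SE 0.09, adjusted p = 0.822) and 0.02 (SE 0.08, adjusted p = 0.84).

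Among the members that share a seed, miR-3473e rose by 0.42 (SE 0.11, adjusted p = 0.00327), from 4.47 to 4.90 in WT to 4.91 to 5.74 in Dgcr8+/- arrays. The call was lost when the median over probes was taken (0.29, adjusted p = 0.130) and when outlier-marked spots were kept (adjusted p = 0.091). Of the 2 miR-3473e probes, 1 was dim (mean log2 signal 1.08) and was not called (0.14, SE 0.27, adjusted p = 0.685). The rise rested on the other probe (0.43, SE 0.11, adjusted p = 0.00467). miR-6370 ranged from 3.46 to 3.99 in WT and from 3.86 to 4.87 in Dgcr8+/- arrays and rose by 0.38 (SE 0.12, adjusted p = 0.0122). That call was lost with a floor of 16 signal units (0.16, adjusted p = 0.240), with outlier-marked spots kept (1.23, adjusted p = 0.180) and in the deposited summary table (adjusted p = 0.195).

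The 2 called falls were past the threshold both before and after normalization. miR-6540-5p was detected on all 8 WT arrays and on 0 of 8 Dgcr8+/- arrays, and thus passed the detection rule through WT alone, which bound it to differ. Its normalized signal ranged from 2.92 to 3.55 (median 3.18) in WT and from 0.38 to 2.43 (median 2.02) in Dgcr8+/- arrays, without overlap. The fitted log2 fold change was -1.34 (SE 0.24, adjusted p = 0.000166), and -1.70 (SE 0.25, adjusted p = 1.22e-05) before normalization. The Dgcr8+/- side was not above background. WT was 2.40-fold brighter when each Dgcr8+/- array took the higher of its measured signal and the lowest signal of a detected tested miRNA. This is not a firm minimum, since an undetected miRNA can have a higher signal. Most Dgcr8+/- arrays did not detect miR-7241-5p, although its normalized signals on them were 3.45 to 3.65. Both of its probes were called lower. With a floor of 16 signal units no difference could be measured.

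miR-3099-3p ranged from 6.21 to 6.60 (median 6.47) in WT and from 5.42 to 6.34 (median 6.12) in Dgcr8+/- arrays. It fell by 0.39 on the log2 scale (SE 0.11, adjusted p = 0.00469) after normalization, and both of its probes were called lower. Before normalization the means were 6.62 ± 0.21 in WT and 5.83 ± 0.42 in Dgcr8+/- arrays, a difference of -0.79 (SE 0.15, adjusted p = 0.000187), and the genotypes did not overlap. The lowest array was Dgcr8+/- replicate 2, and without it the normalized value was -0.30.

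The other 3 members with a negative normalized value were miR-3963, given above, miR-3106-5p (-0.27, SE 0.12, adjusted p = 0.0647) and miR-6351 (-0.24, SE 0.19, adjusted p = 0.269). Both miR-3106-5p and miR-6351 were called lower before normalization, with differences of -0.63 (SE 0.15, adjusted p = 0.00111) and -0.61 (SE 0.17, adjusted p = 0.00398). miR-1198-5p was also called lower before normalization, with a difference of -0.52 (SE 0.10, adjusted p = 9.88e-05). It differed by 0.02 (SE 0.09, adjusted p = 0.906) after normalization. After normalization 1 of its 2 probes was called lower (-0.50, SE 0.06, adjusted p = 1.3e-05) and the other was at 0.08 (SE 0.10, adjusted p = 0.555), and both were called lower before normalization. These 3 members were chosen after their values were seen.

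At the edge of the detection rule, miR-7241-5p (detected on 6 WT and 2 Dgcr8+/- arrays) and miR-7666-5p (6 and 4) stood just inside together with miR-6540-5p. Their normalized means were 3.52 ± 0.29 and 3.56 ± 0.07 for miR-7241-5p and 3.45 ± 0.23 and 3.50 ± 0.17 for miR-7666-5p (WT and Dgcr8+/-, SD, n = 8). Just outside it were miR-7115-3p, detected on 7 arrays, miR-5124a and miR-7653-5p, each on 6, and miR-3475-5p, on 5. Their mean log2 signals over all arrays were 3.47, 2.77, 3.30 and 3.38.

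Each member was measured by 2 to 4 probes, 208 in all, and probes of a miRNA share their target and are not replicates. Fitted one by one over 1162 probes of tested miRNAs, 108 of the members' probes were higher and 6 lower after normalization, against 23.2% and 25.9% of all these probes. All probes were positive for 84 members and negative for 4, and they had both signs for 9. The other 3 members, miR-3963, miR-6366 and miR-8105, each had a probe at 0. All probes were called higher for 42 members and all lower for 2. No member had probes called in opposite directions. The median gap between the log2 fold changes of a member's probes was 0.063. Without normalization all probes were positive for 19 members, all negative for 64 and of both signs for 16, and miR-8105 had a probe at 0. On that scale 0 of the members' probes were called higher and 31 lower, against 0.172% and 54% of all probes.

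By arm, 14 of 24 members named 5p were higher and 1 lower after normalization, 14 of 25 named 3p were higher and 1 lower, and 29 of 51 with no arm in the name were higher and 0 lower. Over all tested miRNAs, 28% of those named 5p were higher and 32.1% lower, 20.6% and 31.1% of those named 3p, and 52.9% and 4.41% of the 68 with no arm in the name, most of which are members. The median log2 fold changes were 0.32, 0.28 and 0.33 after normalization and -0.09, -0.14 and -0.08 before it. The called falls were thus 1 of each named arm.

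Both arms were members for 6 hairpins, and no arm difference was past the threshold in any of them, against 17.5% of 80 hairpins with both arms tested. Both arms of miR-1897 were called higher. Its 5p arm ranged from 5.17 to 5.43 in WT and from 5.62 to 6.38 in Dgcr8+/- arrays (0.48, SE 0.09, adjusted p = 0.0003), and its 3p arm from 5.49 to 5.99 and from 5.98 to 6.53 (0.47, SE 0.09, adjusted p = 0.000331). The change in the 5p minus 3p difference was 0.01 (SE 0.07, adjusted p = 0.929), and 0.10 with the slide as a block (adjusted p = 0.386).

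miR-3620, overlapping Apex2 on chromosome X, had its 5p arm ahead. The 5p arm rose by 0.44 (SE 0.10, adjusted p = 0.0012) and the 3p arm differed by 0.16 (SE 0.10, adjusted p = 0.147). The 5p minus 3p difference was 0.98 ± 0.33 in WT and 1.26 ± 0.19 in Dgcr8+/- arrays (SD, n = 8), a change of 0.28 (SE 0.13, adjusted p = 0.171). With the slide as a block the change was 0.10 (adjusted p = 0.551). Before normalization the 3p arm was called lower (-0.21, SE 0.08, adjusted p = 0.0412).

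In miR-7241 and miR-7666 the 3p arm lay ahead. For miR-7666 the change in the 5p minus 3p difference was -0.30 (SE 0.16, adjusted p = 0.213), with 0.05 (SE 0.10) for the 5p and 0.34 (SE 0.16, adjusted p = 0.0679) for the 3p arm. For miR-7241 it was -0.25 (SE 0.14, adjusted p = 0.241), with 0.04 (SE 0.10) for the 5p and 0.28 (SE 0.11, adjusted p = 0.0386) for the 3p arm. The 5p arms were detected on 8 (miR-7241-5p) and 10 (miR-7666-5p) of the 16 arrays. Dgcr8+/- replicate 2 held the highest value of both 3p arms, and without it they differed by 0.19 (miR-7241-3p) and 0.20 (miR-7666-3p), and the arm differences changed by -0.15 (miR-7241) and -0.16 (miR-7666). With the slide as a block the changes were -0.40 and -0.45, each at an adjusted p of 0.0635. Dgcr8+/- replicate 2 was 1 of only 2 Dgcr8+/- arrays on slide 1.

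The 2 hairpins on chromosome 12, miR-1843a within Dcaf5 and miR-3068 within Alkbh1, had differences of at most 0.24. For miR-1843a the 5p arm rose by 0.15 (SE 0.05, adjusted p = 0.0258) and the 3p arm by 0.24 (SE 0.09, adjusted p = 0.0322). For miR-3068 the 5p arm differed by 0.13 (SE 0.05, adjusted p = 0.0564) and the 3p arm rose by 0.21 (SE 0.08, adjusted p = 0.0418). The arm differences changed by -0.10 (SE 0.10, adjusted p = 0.572) and -0.08 (SE 0.10, adjusted p = 0.609). Without Dgcr8+/- replicate 2 they changed by -0.03 and 0.01, and miR-3068-3p differed by 0.13. With the slide as a block the change in miR-3068 was -0.18 (adjusted p = 0.271). All 4 arms were on the negative side before normalization, between -0.23 and -0.14, and none was called.

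**Figure D4:**
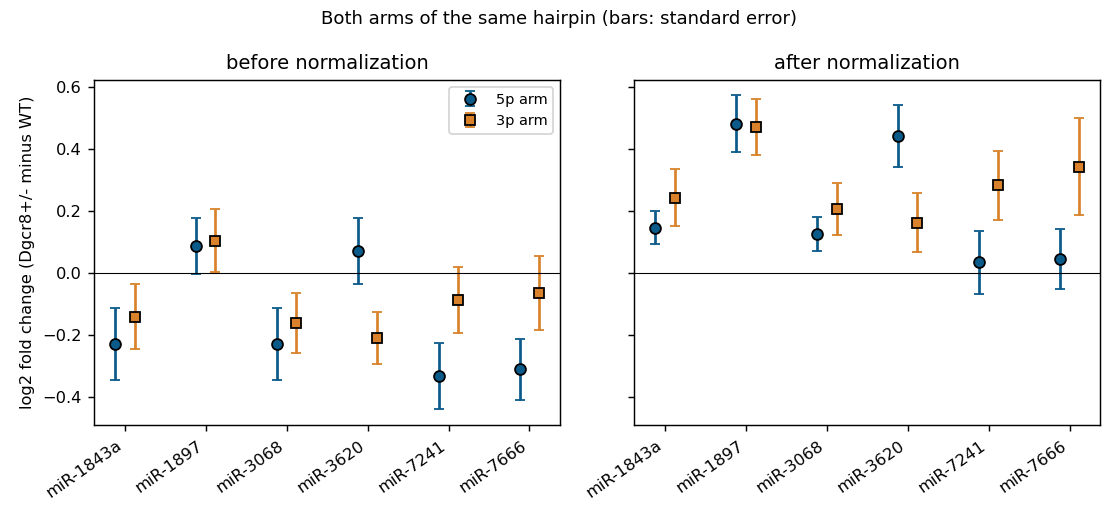
Log2 fold change (Dgcr8+/- minus WT) of the 5p arm (blue circles) and 3p arm (orange squares) of the 6 hairpins with both arms among the members, before and after normalization. Bars are standard errors from limma over 8 arrays per genotype. After normalization the arms of miR-1897 lie together, and the 5p arm lies above the 3p arm in miR-3620 and below it in miR-7241 and miR-7666.

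The 83 members with a sequence were 18 to 26 bases long (median 22), with a median G and C share of 61.9%, against 50% over all tested miRNAs, 45.6% for numbers under 1000 and let-7, and 62.2% in the mirtron-rich block. After normalization 24 of 31 members with a G and C share of 65% or more were higher and 0 lower, as were 14 of 23 from 55 to under 65%. From 45 to under 55% 9 of 21 were higher and 1 lower, and under 45% 3 of 8 were higher. In the same classes, from the highest share to the lowest, 67.6%, 44.2%, 18.7% and 7.38% of all tested miRNAs were higher and 14.7%, 19.8%, 32% and 36.9% lower. Across these 83 members the Spearman correlation of the log2 fold change with the G and C share was 0.44 after and 0.43 before normalization, and with the share of G alone 0.52 and 0.49. The points share all 16 arrays and their normalization, and some share sequence, so these are descriptions. Over all 426 tested miRNAs with a sequence the correlation with the G and C share was 0.45 and 0.47, and within the 294 with a number under 1000 or a let-7 name 0.10 and 0.13. At a G and C share of 55% or more, 38 of 54 members were higher and 0 lower, against 17 higher and 27 lower of 60 miRNAs with a number under 1000 or a let-7 name.

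**Figure D5:**
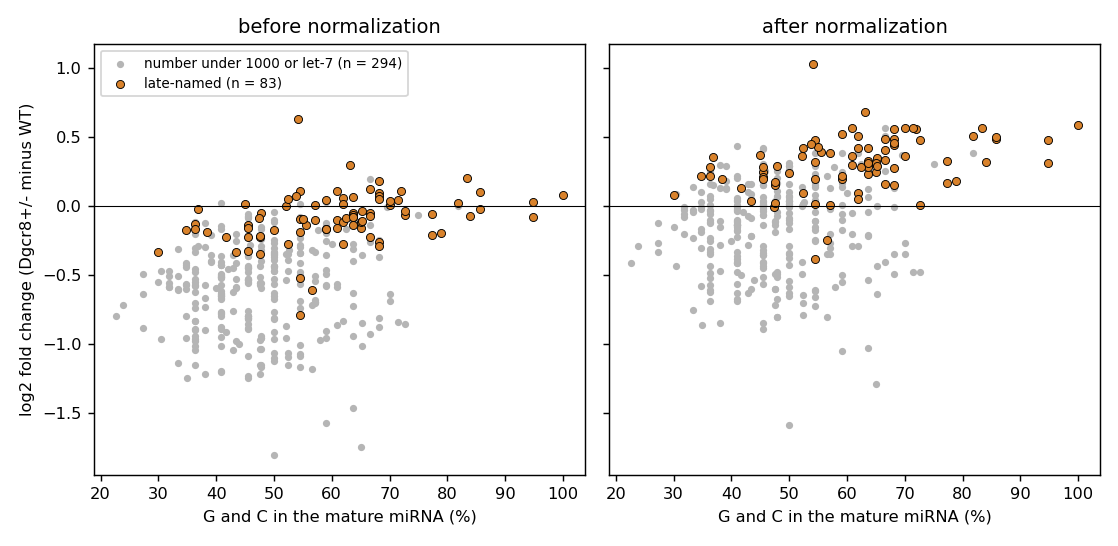
Log2 fold change (Dgcr8+/- minus WT) against the G and C share of the mature sequence, before and after normalization, for 83 members (orange) and 294 miRNAs with a number under 1000 or a let-7 name (grey). Members with a higher share lie higher on both scales, and the members span shares of 30 to 100% and the grey points 22.7 to 81.8%.

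By signal, 21 of 28 members with a mean normalized log2 signal from 6 to under 10 were higher and 1 lower, 23 of 42 from 4 to under 6 were higher, and 12 of 25 under 4 were higher and 1 lower. Of the 5 at 10 or more, 1 was higher. Over all tested miRNAs of these classes, in the same order, 28.2%, 35.3%, 24.8% and 16.7% were higher and 32.6%, 24.8%, 29.7% and 18.3% lower. Within protein-coding genes 33 of 52 members were higher and 1 lower, and outside them 17 of 31 were higher and 0 lower. Over all tested miRNAs with a position, 35.1% were higher and 29.3% lower within such genes, and 19.6% and 26.6% outside them.

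The arrays lie on 2 slides, slide 1 with 6 WT and 2 Dgcr8+/- arrays and slide 2 with 2 and 6. The 2 Dgcr8+/- arrays on slide 1 were replicates 2 and 5, and the 2 WT arrays on slide 2 were replicates 2 and 7. Values within slides and with the slide as a block therefore rest in part on these arrays. With the slide as a block, 67 members were higher and 2 lower, against 30.5% and 29.1% of all tested miRNAs. Within slide 1 the members' median log2 fold change was 0.42, and within slide 2 it was 0.29, against -0.02 and 0.07 over all tested miRNAs, and 84 and 91 of the 100 members were positive. Before normalization the members' medians within the slides were -0.04 and -0.19, against -0.53 and -0.46 over all tested miRNAs. Dgcr8+/- replicate 2 had a hybridisation spike-in signal of 13.08, against 14.29 to 14.50 on the other 7 Dgcr8+/- arrays, and the lowest median signal of the other tested miRNAs (5.38). WT replicate 6 stood apart the other way, with a spike-in signal of 15.42 against 14.33 to 14.66 on the other 7 WT arrays. The part of Dgcr8+/- replicate 2 in the results was not tested beyond leaving it out, which gave 66 members higher and 3 lower after normalization (34.3% and 30.3% of all tested), and 0 higher and 16 lower before it (0% and 58.6%).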

How the data were processed

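Total RNA from the LV wall of 16 mice was labelled with Cy3 and hybridised to 1-colour Agilent mouse miRNA arrays. Per the file headers and the labels, the authors extracted spot intensity values with Agilent Feature Extraction (10.7.3.1 in the headers, 10.5.1.1 in the labels), and the deposited intensity used here is the processed, background-corrected signal. The deposited summary table holds the summed gene signal intensity, equal to that of the array files (largest difference 0), and served as an alternative. The deposited score columns flag outlier spots and detection per array.

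Outlier-marked spots (2.67% of 56430) were left out, spots were averaged per probe (4415 probes), arrays were quantile-normalized, probes were averaged per miRNA, and a floor of 1 signal unit preceded log2. miRNAs detected on at least 8 arrays were tested with limma 3.58.1 (R 4.3.3), Dgcr8+/- minus WT, with Benjamini-Hochberg adjustment. Probes and 5p minus 3p differences were fitted likewise. The labels call the arrays biological replicates. The number of arrays limits the precision. No spot was saturated.

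The members and lists were chosen with earlier results of these data known. Named were the 8 brightest members, the 8 largest called rises and falls, hairpins with both arms, members at the detection edge, shared seeds, probes called opposite, and miR-2861 with miR-3960. Scripts were tested on simulated data. Alternatives changed the scaling, background, floor, filter, probe summary, test, slide and replicate blocks, and left out each array. Sequences and positions are from RefSeq tables (GRCm38.p6).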

Additional observations from a re-analysis of the deposited data

Results flagged for a closer look

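Among the 64 groups of 8 arrays formed by the 32 named members and the 2 genotypes, 13 had an array whose gap to the nearest other array, relative to the whole range, exceeded Dixon's critical value for 8 values. Chance gives about 1 in 20, or 3.2 groups. In 11 of the 13 that array was Dgcr8+/- replicate 2. Among them, miR-6366 and miR-3963 had the same normalized value on all other Dgcr8+/- arrays. A gap of any size is flagged in such a group, so the chance rate does not apply to these flags.

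Dgcr8+/- replicate 2 was high for miR-6368, at 11.33 against 10.11 to 10.39 on the other 7 arrays, for miR-7666-3p at 7.33 (5.98 to 6.28), for miR-7241-3p at 5.22 (4.27 to 4.61) and for miR-3473e at 5.74 (4.91 to 5.12). It was also high for miR-1897-5p at 6.38 (5.62 to 5.84), for miR-3068-3p at 5.70 (4.92 to 5.21), for miR-6370 at 4.87 (3.86 to 4.23) and, by a very small amount, for miR-6366 at 17.97 (17.94 on the other 7). It was low for miR-3099-3p at 5.42 (5.97 to 6.34), for miR-6540-5p at 0.38 (1.47 to 2.43) and for miR-3963 at 17.09 (17.15 on the other 7).

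The remaining 2 were miR-5119, at 5.98 on Dgcr8+/- replicate 5 against 4.29 to 5.08, and miR-3068-3p, at 4.79 on WT replicate 2 against 4.96 to 5.08. Over all 100 members, Dgcr8+/- replicate 2 stood apart on the high side for 26 and on the low side for 6, and Dgcr8+/- replicate 5 on the high side for 3. These arrays share their RNA and normalization across miRNAs, so the flags are not independent.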

How the results depend on the processing

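Against 57 members higher and 2 lower, the counts moved most with the scaling. Without normalization 0 were higher and 15 lower, and with the labelling spike-ins as the scale 0 and 5, with medians over all tested miRNAs of -0.39 and -0.38. With the 75th percentile of probes detected on all arrays, that of all probes and cyclic loess, 80, 58 and 64 members were higher. Over all 495 tested miRNAs 210, 114 and 154 were higher. Without the filter on dim miRNAs 41 members were higher (124 of 1881 tested). With a floor of 16, the deposited summary table and outlier-marked spots kept, 43, 44 and 49 were higher (110, 113 and 116 of 495). Leaving out Dgcr8+/- replicate 2 as well as normalization, an alternative chosen after seeing the data, gave 0 and 16. Leaving out both arrays with distant hybridisation spike-ins, Dgcr8+/- replicate 2 and WT replicate 6, from the normalized data, also chosen after seeing the data, gave 67 and 2. At the study's thresholds 30 were higher and 1 lower. The count of lower members was 1 with a floor of 16 and among miRNAs detected on all 16 arrays, and 4 in the deposited summary table. Of the members' probes, 0 were higher and 31 lower without normalization. Leaving out 1 array at a time gave 51 to 66 members higher and 2 to 3 lower, 93 to 122 probes higher and 5 to 7 lower, and 0 arm differences.

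Values changed sign without normalization (and with the spike-in scale) for miR-1843a-3p at -0.14 (-0.12), miR-1843a-5p at -0.23 (-0.21), miR-3068-3p at -0.16 (-0.15), miR-3068-5p at -0.23 (-0.21), miR-3473b at -0.16 (-0.15), miR-3620-3p at -0.21 (-0.19), miR-3968 at -0.11 (-0.0911), miR-5100 at -0.12 (-0.10), miR-6366 at -0.038 (-0.023), miR-6368 at -0.073 (-0.058), miR-7241-3p at -0.086 (-0.071), miR-7241-5p at -0.33 (-0.32), miR-7666-3p at -0.063 (-0.048) and miR-7666-5p at -0.31 (-0.29). miR-3963 turned to 0.45 and 0.27 with the 75th percentile of probes detected on all arrays and of all probes, and to 0.43 with cyclic loess. In the deposited summary table, which was fitted with a floor below 1 signal unit, miR-7241-5p was at -2.63 and miR-7666-5p at -1.18. The cause was not tested. Of the 23 named members called, 16 had a value more than 1.5 times smaller with normexp background correction and 7 with a pseudocount of 16. With 1 array left out, uncalled miR-3968 ranged from -0.012 to 0.0098, miR-7241-5p from -0.027 to 0.097 and miR-7666-5p from -0.015 to 0.101.

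The labels do not state whether the replicate numbers pair the mice, and the values do not decide it. Deviations of same-numbered arrays correlated at -0.14 to 0.50 (median 0.28), over 0.1 in 5 of 8 pairs. Of the 8 WT arrays, 3 correlated best with their own number. With the replicate block 62 members were higher and 2 lower, 55 of them higher in both fits. Members near background (a normalized signal under 4 for 25 of 100) have the least reliable values.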
